A study of Mus musculus with 20 samples.

Results

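The genes described here are 40 that mature skeletal muscle uses to contract: the proteins of the sarcomere, the channels and pumps that move calcium, and enzymes and turnover factors that mature fibres carry with them. They were listed by symbol, with earlier results of these data known, and no threshold on their values was used. All 40 were found among the 51826 genes of the count table. By the fibre type that is known to use them most, 14 are fast members, 7 are slow members and 19 are shared by fibre types.

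RNA was sequenced from 14 lung metastases and 6 primary tumours of mouse sarcoma, and each metastasis was matched by its title with 1 primary tumour. The tissue is labelled as mouse tumour and the genotype as a mixed background, the same for both groups, and no allele, agent, age, sex or tumour site is given. A metastasis is named by its set and its number, so that 2-3 is the metastasis numbered 3 that belongs with primary tumour 2, and the metastasis of set 5, which carries no number, is written 5-x. There were 4 metastases for each of primary tumours 1 and 2, 2 for each of primary tumours 3 and 6, and 1 for each of primary tumours 4 and 5. Nothing in the labels says that the samples came from separate animals, so a p-value measures the spread between these samples, which may be technical in part.

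A sarcomere shortens when myosin heavy chains pull on actin filaments. It does so only when calcium reaches troponin C, which lifts the block that troponin I, troponin T and tropomyosin keep on the actin. Fast fibres and slow fibres build this machine from different genes of the same families, and fast fibres also hold more of the calcium pump, the calcium store and the calcium buffer that let them relax quickly. Adult limb muscle of the mouse is mostly fast, whereas embryonic and regenerating fibres use embryonic and perinatal myosins and carry several of the slow troponins as well. In bulk tissue, fewer cells of a type and less RNA per cell cannot be told apart.

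The promoters of a fast myosin, of the muscle creatine kinase and of a pair of slow troponin genes are printed because these genes stand at opposite ends of the results. Each runs from 250 bases before to 50 bases after the start of the gene in RefSeq (GRCm38.p6, plus strand), and capitals mark CANNTG, the E-box that myogenic factors such as MyoD can bind. The windows are chr11:67237562-67237861 for Myh4, chr7:19410844-19411143 for Ckm, chr1:135799171-135799470 for Tnni1 and chr14:31208062-31208361 for Tnnc1.
Myh4: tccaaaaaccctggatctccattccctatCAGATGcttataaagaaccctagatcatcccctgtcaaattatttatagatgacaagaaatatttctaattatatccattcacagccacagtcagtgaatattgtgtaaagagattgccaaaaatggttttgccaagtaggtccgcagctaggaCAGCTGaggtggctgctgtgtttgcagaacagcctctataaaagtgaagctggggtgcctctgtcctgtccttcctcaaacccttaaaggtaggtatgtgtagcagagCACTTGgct
Ckm: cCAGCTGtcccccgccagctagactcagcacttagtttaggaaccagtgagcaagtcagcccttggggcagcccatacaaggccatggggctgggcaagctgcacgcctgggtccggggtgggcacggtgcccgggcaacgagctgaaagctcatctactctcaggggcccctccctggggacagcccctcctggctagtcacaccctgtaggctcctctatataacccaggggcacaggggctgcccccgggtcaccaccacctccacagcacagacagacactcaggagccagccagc
Tnni1: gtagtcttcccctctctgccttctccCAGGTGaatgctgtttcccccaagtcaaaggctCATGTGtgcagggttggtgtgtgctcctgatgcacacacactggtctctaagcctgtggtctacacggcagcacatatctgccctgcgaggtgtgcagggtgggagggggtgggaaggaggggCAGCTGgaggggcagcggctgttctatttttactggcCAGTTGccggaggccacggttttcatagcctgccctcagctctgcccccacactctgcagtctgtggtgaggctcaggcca
Tnnc1: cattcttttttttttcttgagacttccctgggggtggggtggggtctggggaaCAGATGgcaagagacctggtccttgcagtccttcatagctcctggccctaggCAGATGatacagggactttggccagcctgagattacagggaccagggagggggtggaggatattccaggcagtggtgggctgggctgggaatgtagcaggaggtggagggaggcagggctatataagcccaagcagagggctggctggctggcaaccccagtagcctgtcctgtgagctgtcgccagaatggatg

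Windows of this length were found for 32 of the 40 genes, some with more than 1 start. CANNTG, read on both strands, stood in 30 of their 37 windows (81.1%), against 23756 of all 32851 windows (72.3%). Its form CAGCTG, which is counted within CANNTG, stood in 18 of the 37 (48.6%), against 16.3% of all windows. For the site that MEF2 factors bind, only a form with palindromic ends was searched. That form stood in 6 of the 37 (16.2%), against 3.69% of all windows. Of the printed windows, Myh4 held 3 copies of CANNTG, Ckm 1, Tnni1 4 and Tnnc1 2, and none held the searched MEF2 form. Other forms of the MEF2 site were not searched, so these windows may still hold one. These are matches of letters and not measured binding.

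The 40 genes together took 0.0494% to 1.33% of all counts in the metastases (median 0.123%) and 0.00445% to 3.87% in the primary tumours (median 1.67%). The primary tumours differed widely. Primary tumours 1, 2, 3 and 5 held 1.48%, 2.49%, 1.85% and 3.87% of their counts in these genes, and primary tumours 4 and 6 held 0.0171% and 0.00445%, less than any metastasis. In primary tumour 4, 5 of the 40 genes had no count, and in primary tumour 6, 11 had none. Primary tumour 5 was the highest of the 6 for 28 of the 40 genes. Among the metastases, 2-3 was the highest for 24 genes and 3-1 for 11, and 3-1 was among the top 2 for 36. Total counts ran from 20603620 to 35517893 in the metastases and from 26287783 to 36824370 in the primary tumours, and no pair of libraries of the same group agreed within sampling noise.

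The lung label could be checked against 10 epithelial genes of lung. All 10 rose in the metastases, against 7.34% of all genes. The summed level of the 10 ran from 17.8 to 13330 CPM (read counts scaled to a common library total, with TMM scaling) in the metastases, against 0.802 to 51.0 CPM in the primary tumours. Metastases 2-3 and 2-4, at 37.1 and 17.8 CPM, lay within the range of the primary tumours.

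**Figure D1:**
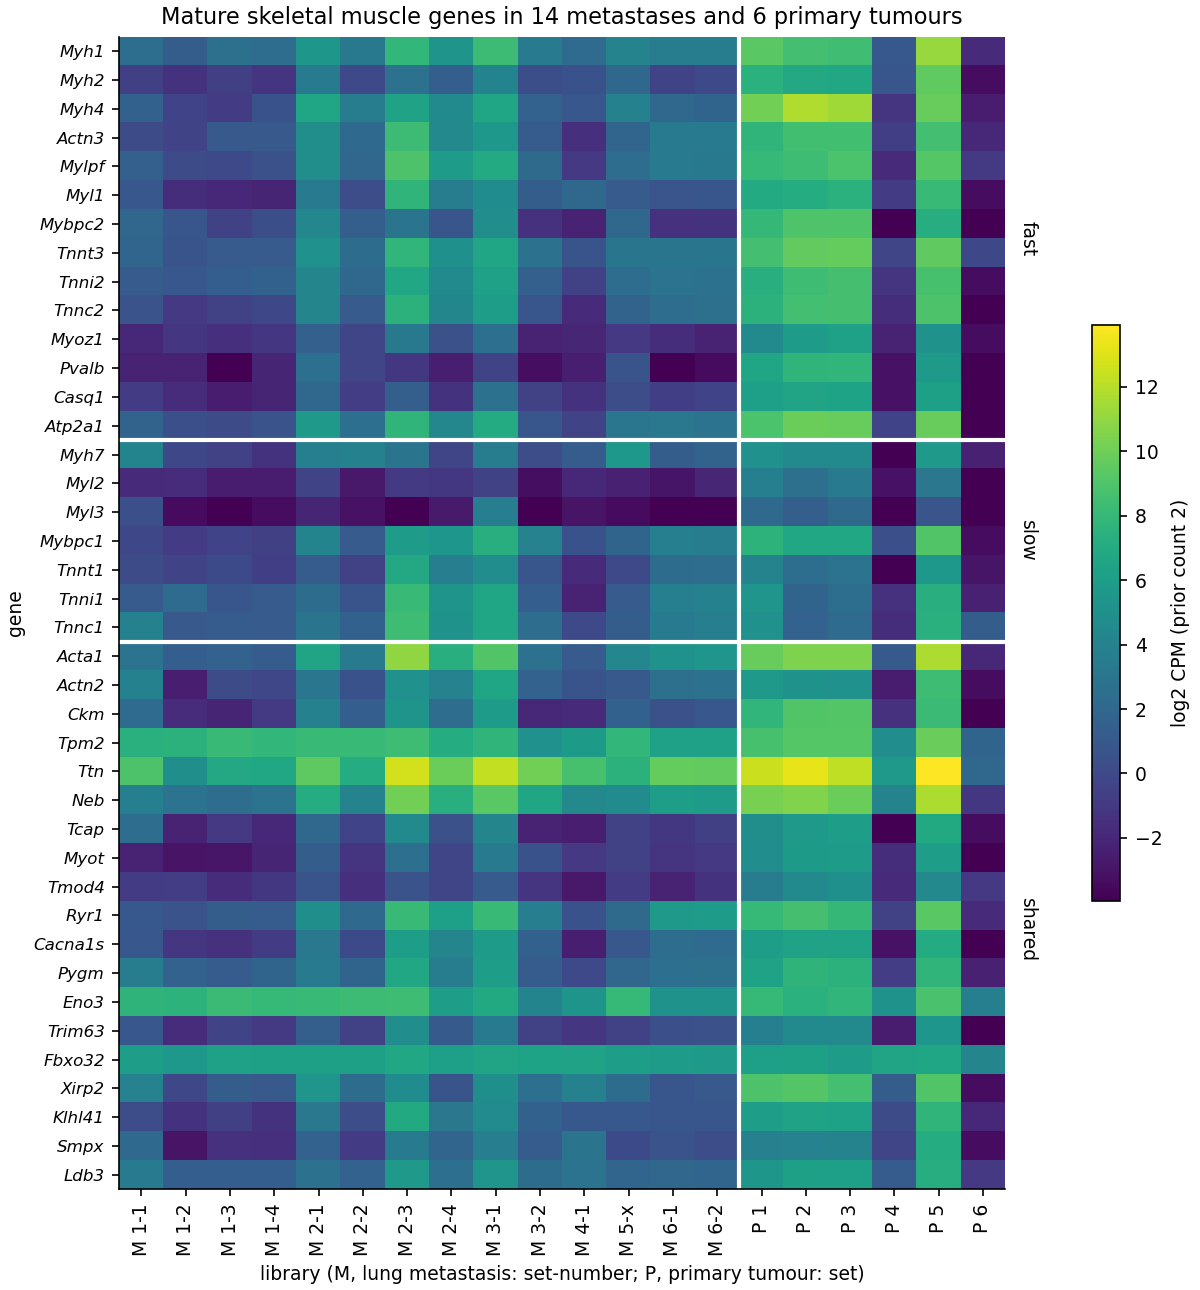
Level of each of the 40 genes (rows, log2 CPM with a prior count of 2) in the 14 lung metastases (left, set and number) and 6 primary tumours (right), with the 14 fast members above the 7 slow and 19 shared ones. Primary tumours 1, 2, 3 and 5 and metastases 2-3 and 3-1 are bright for most genes, and primary tumours 4 and 6 are dark.

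Set against their primary tumours, the metastases had lower levels of 39 of the 40 genes, and 16 passed the test. No member rose, 16 fell and 24 did not pass (edgeR quasi-likelihood test over 18452 genes with the matched set as a block, Benjamini-Hochberg adjusted p under 0.05). Of all genes tested, 7.34% rose and 6.44% fell. Without adjustment, 29 of the 40 genes were lower at p under 0.05, against 14.1% of all genes. The median log2 fold change of the 40 genes, metastasis over primary tumour, was -3.86, where that of all tested genes was 0. The calls were spread unevenly over the fibre types: 11 of 14 fast members fell (median -4.65), 1 of 7 slow members fell (median -1.27) and 4 of 19 shared members fell (median -3.01). Whether fast members fell more than slow ones was not itself tested.

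How firmly the 16 calls stand depends on which sets are in the test and on how the metastases of a set are counted. The fit counted every metastasis as a separate sample, although those of 1 set share 1 primary tumour. It also fitted 1 common difference for all sets. Without set 1, 2 of 39 members tested fell, and 432 of all genes did, against 1189 with every set. Without set 2, 4 of 39 members and 407 of all genes fell. With sets 4 and 6 both left out, 30 members and 1065 of all genes fell. These 2 sets were chosen after seeing that most members were higher in their metastases, so more calls follow from the choice. With the metastases of each set summed to 1 sample, none of the 40 passed in edgeR, although 4 had an unadjusted p under 0.05, and 63 of all genes fell. With metastasis 1 of each set alone, only Tmod4 of the 40 fell, and 108 of all genes did. Without metastasis 2-3, 23 members and 1229 of all genes fell. Without both 2-3 and 3-1, the metastases highest for most members and also chosen after seeing these values, 27 members and 1095 of all genes fell.

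**Figure D2:**
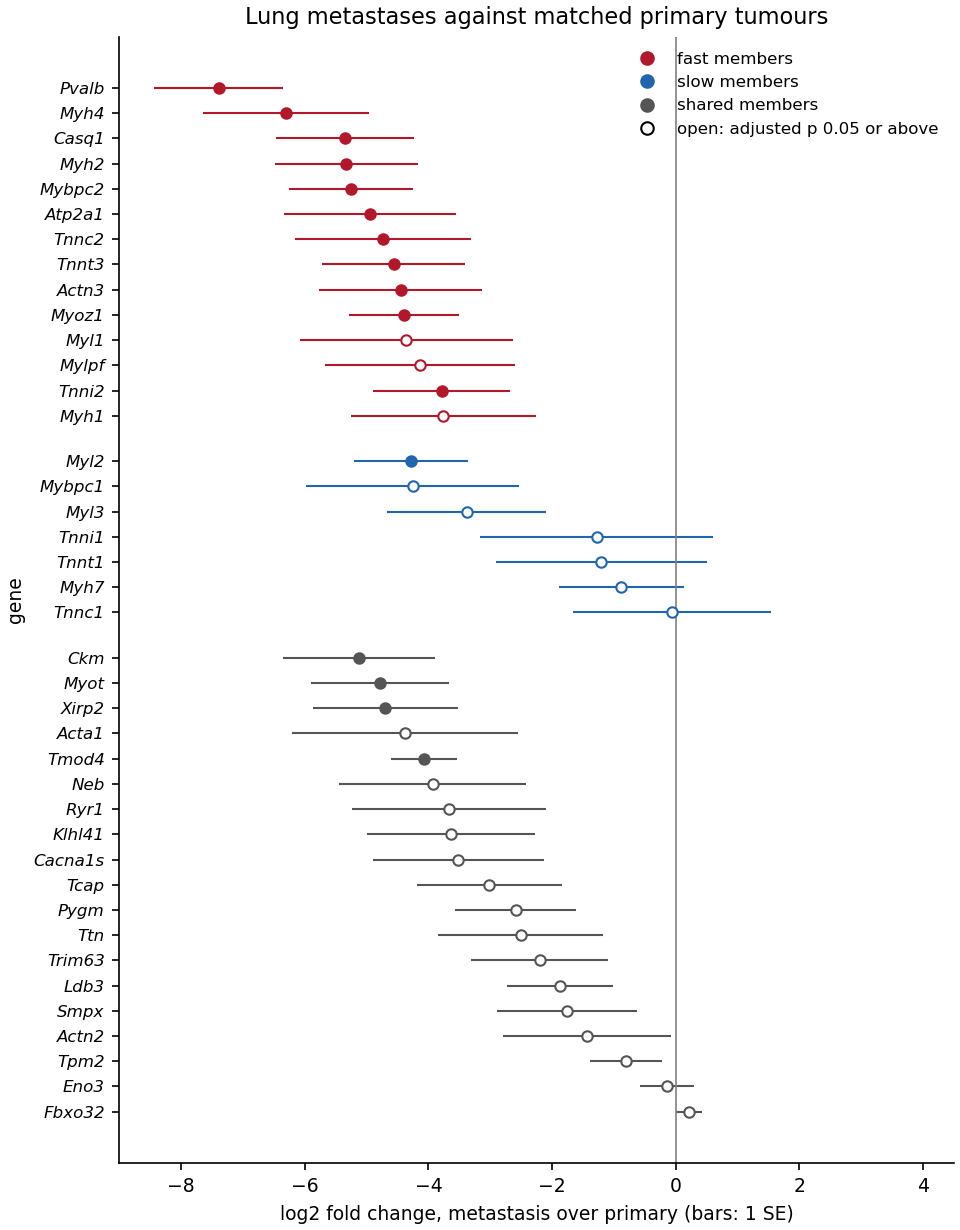
Log2 fold change of each gene, metastasis over primary tumour, with bars of 1 standard error, for fast (top), slow (middle) and shared members; filled points passed the threshold. Fast members run from -7.39 to -3.76, and slow members from -4.28 to -0.06.

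The sets pulled in opposite directions. The mean of the metastases lay below the primary tumour for 40 of the 40 genes in set 1, 35 in set 2, 37 in set 3, 7 in set 4, 40 in set 5 and 1 in set 6. Of all tested genes, 48.6%, 49.4%, 51.9%, 49.8%, 50.5% and 45% were lower in these sets, in the same order. The median log2 difference of the 40 genes was -6.75, -3.44, -3.88, 0.87, -6.36 and 4.25 in sets 1 to 6. Most of the 40 genes therefore lay below the primary tumour in 4 sets, and above it in the 2 sets whose primary tumours held least of them. The only member that was lower in 6 of 6 sets was Tmod4, and of all tested genes 6.43% were. In set 4 its direction rested on 3 counts in the metastasis against 4 in the primary tumour, too few to tell them apart. No member was higher in 6 of 6 sets, and 9.01% of all genes were.

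The order also held for single metastases in most cases. Every metastasis was below its primary tumour for 38 of the 40 genes in set 1 (27.2% of all genes), 30 in set 2 (28.2%) and 31 in set 3 (34.6%). In set 6 both metastases were above the primary tumour for 37 of the 40 genes (51.7% of all genes) and below it for 1 (42.4%). In set 5 the single metastasis was above its primary tumour for 0 of the 40 (49.5%). Single sets have 1 primary tumour each, so no test was made within a set.

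The fast myosin heavy chains are the motors of fast fibres, and their genes lie side by side on chromosome 11 (mm10), Myh2 from 67171027 to 67197517, Myh1 from 67200052 to 67224575 and Myh4 from 67238029 to 67260446. Myh4, which encodes the myosin of the fastest fibres (IIb), had 0.482 to 100 CPM in the metastases (median 3.68), against 0.101 to 3461 CPM in the primary tumours (median 987). The groups overlapped, because primary tumours 4 and 6, at 0.374 and 0.101 CPM, were below every metastasis, while the other primary tumours, at 859 CPM or more, were above every one. Myh4 fell, with a log2 fold change of -6.30 ± 1.34 (SE) and an edgeR adjusted p of 0.0072.

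Myh2, the myosin of the fast but fatigue-resistant IIa fibres, had 0.328 to 17.1 CPM in the metastases (median 1.06) and 0.0336 to 762 CPM in the primary tumours (median 109), and fell (-5.33 ± 1.16, edgeR adjusted p = 0.00777). Myh1, the myosin of the IIx fibres in between, had 2.42 to 315 CPM in the metastases (median 11.4) and 0.235 to 2318 CPM in the primary tumours (median 358). Metastases 3-1 and 2-3, at 315 and 241 CPM, came close to primary tumours 2 and 3, at 374 and 341 CPM, and Myh1 did not pass (-3.76 ± 1.49, edgeR adjusted p = 0.108). These 3 genes are closely related in sequence and reads that fit more than 1 of them may have been split or dropped in counting, so the division among them is uncertain.

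Of the partners of fast myosin, 1 fell and the light chains did not pass. Mybpc2 encodes the fast form of myosin-binding protein C, which binds myosin in the thick filament. It had 0.148 to 28.4 CPM in the metastases (median 1.68) and 0 to 512 CPM in the primary tumours (median 194), and fell (-5.25 ± 1.01, edgeR adjusted p = 0.00437). The light chain genes Mylpf and Myl1, whose products stiffen the neck of fast myosin, had log2 fold changes of -4.14 and -4.36 and did not pass (edgeR adjusted p = 0.0848 and 0.105). Metastasis 2-3 had 488 CPM of Mylpf, more than primary tumours 1, 2 and 3 (258, 337 and 461 CPM).

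Troponin is the calcium switch, and all 3 of its fast forms fell. Tnni2, the inhibitory subunit of fast fibres (chromosome 7, 142441808 to 142444410), had 0.682 to 109 CPM in the metastases (median 4.80) and 0.0336 to 428 CPM in the primary tumours (median 246), and fell (-3.79 ± 1.10, edgeR adjusted p = 0.0323). Tnnt3, the fast subunit that binds tropomyosin (chromosome 7, 142498836 to 142516009), had 1.51 to 221 CPM in the metastases (median 7.30) and 0.802 to 826 CPM in the primary tumours (median 558), and fell (-4.56 ± 1.15, edgeR adjusted p = 0.0164). Tnnc2, the fast calcium sensor, had 0.237 to 187 CPM in the metastases (median 2.71) and 0 to 485 CPM in the primary tumours (median 287), and fell (-4.74 ± 1.43, edgeR adjusted p = 0.037). For each of the 3 genes metastasis 2-3 was the highest metastasis. Primary tumours 4 and 6 were below every metastasis for Tnni2 and Tnnt3, and for Tnnc2 primary tumour 4, at 0.267 CPM, lay just above metastasis 4-1, at 0.237 CPM.

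All 3 fast calcium handlers fell, and Pvalb had the largest fold change of the 40 genes. Pvalb encodes parvalbumin, the calcium buffer of fast fibres, and lies on chromosome 15 from 78191114 to 78206400. It had 0 to 5.82 CPM in the metastases (median 0.155), against 0 to 223 CPM in the primary tumours (median 71.6), and fell (-7.39 ± 1.05, edgeR adjusted p = 0.000942). Primary tumours 1, 2, 3 and 5, at 50.8 to 223 CPM, lay far above every metastasis, and metastasis 2-3, which was high for most of the genes, had 0.426 CPM. Atp2a1, the pump that returns calcium to its store in fast fibres, had 0.771 to 215 CPM in the metastases (median 6.54) and 0 to 954 CPM in the primary tumours (median 666), and fell (-4.94 ± 1.39, edgeR adjusted p = 0.0269). Casq1, the protein that holds calcium in that store, had 0.103 to 6.34 CPM in the metastases and 0 to 90.04 CPM in the primary tumours and fell (-5.35, edgeR adjusted p = 0.00661). The 2 remaining fast members, Actn3, the Z-disc crosslinker of fast fibres (-4.45, edgeR adjusted p = 0.0348), and Myoz1, a calcineurin-binding Z-disc protein (-4.39, edgeR adjusted p = 0.00565), fell as well. When the matched set was not used as a block, Actn3 and Tnnc2 no longer passed (edgeR adjusted p = 0.138 and 0.0779), and Myh1 did (0.0398).

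The slow members gave a different picture, since 6 of the 7 did not pass. Myh7, the slow myosin heavy chain, which heart ventricle also uses, had 0.327 to 48.0 CPM in the metastases (median 2.79) and 0 to 49.7 CPM in the primary tumours (median 23.2), with a log2 fold change of -0.88 ± 1.01 (edgeR adjusted p = 0.614). Metastasis 5-x, at 48.0 CPM, was close to its primary tumour, at 49.7 CPM. Myl2, the slow regulatory light chain (chromosome 5, 122100951 to 122113472), was the exception: it had 0.0392 to 0.760 CPM in the metastases (median 0.193), against 0 to 13.52 CPM in the primary tumours (median 7.39), and fell (-4.28 ± 0.92, edgeR adjusted p = 0.00736). Myl3, the slow essential light chain (-3.38, edgeR adjusted p = 0.0991), and Mybpc1, the slow myosin-binding protein C (-4.25, edgeR adjusted p = 0.115), were lower without passing.

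The slow troponins did not differ detectably between the groups and had wide errors. Tnni1, the slow inhibitory subunit (chromosome 1, 135779434 to 135810989), had 0.148 to 286 CPM in the metastases (median 3.70) and 0.135 to 161 CPM in the primary tumours (median 4.56), with a log2 fold change of -1.27 ± 1.88 (edgeR adjusted p = 0.702). Tnnc1, the slow calcium sensor (chromosome 14, 31208312 to 31211729), had 0.949 to 336 CPM in the metastases (median 6.49) and 0.267 to 168 CPM in the primary tumours (median 4.06), with a log2 fold change of -0.06 ± 1.60 (edgeR adjusted p = 0.988), the largest p of the 40. Tnnt1, the slow tropomyosin-binding subunit, had 0.237 to 114 CPM in the metastases (median 1.39) and 0 to 46.8 CPM in the primary tumours (median 6.404), with -1.20 ± 1.70 (edgeR adjusted p = 0.689). The highest library of all 20 for each of the 3 was metastasis 2-3. The direction of these 3 folds turned under several alternatives, and none passed under any of the alternatives run.

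On the mean of the metastases, the slow genes Tnni1 and Tnnc1 in sets 2 and 3 differed from the primary tumour in the opposite direction to their fast partners. Single metastases departed from this, since both genes in 2-2 and Tnni1 in 3-2 lay below the primary tumour. The slow gene Tnnt1 had mean log2 differences of only 0.33 and -0.06 in these sets. In metastases 2-1 to 2-4, Tnni1 had 5.16, 1.55, 286 and 39.4 CPM, against 3.41 CPM in primary tumour 2, and Tnnc1 had 7.60, 2.90, 336 and 36.2 CPM, against 3.17 CPM. In metastases 3-1 and 3-2, Tnni1 had 93.9 and 2.55 CPM, against 5.71 CPM in primary tumour 3, and Tnnc1 had 96.2 and 5.37 CPM, against 4.95 CPM. The mean log2 differences were 2.34 and 1.44 for Tnni1 and 2.83 and 2.19 for Tnnc1 in sets 2 and 3. For the fast partners they were -3.98 and -4.70 for Tnni2 and -4.30 and -5.18 for Tnnc2, and all 14 fast members were lower in both sets. Per kilobase of exon, metastasis 2-3 had 323 CPM of Tnnc1 and 234 CPM of Tnnc2, where primary tumour 2 had 3.05 CPM of Tnnc1 and 483 CPM of Tnnc2.

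In sets 1 and 5 the slow troponins were lower along with the fast ones. The log2 difference of Tnni1 was -3.99 in set 1 and -6.14 in set 5, and that of Tnnc1 was -3.23 and -6.07. In set 6, Tnnc1 had 11.3 and 12.6 CPM in the metastases and 2.46 CPM in the primary tumour, Tnni1 had 13.7 and 14.6 CPM in the metastases and 0.135 CPM in the primary tumour, and Tnni2 had 7.15 and 6.71 CPM in the metastases and 0.0336 CPM in the primary tumour.

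**Figure D3:**
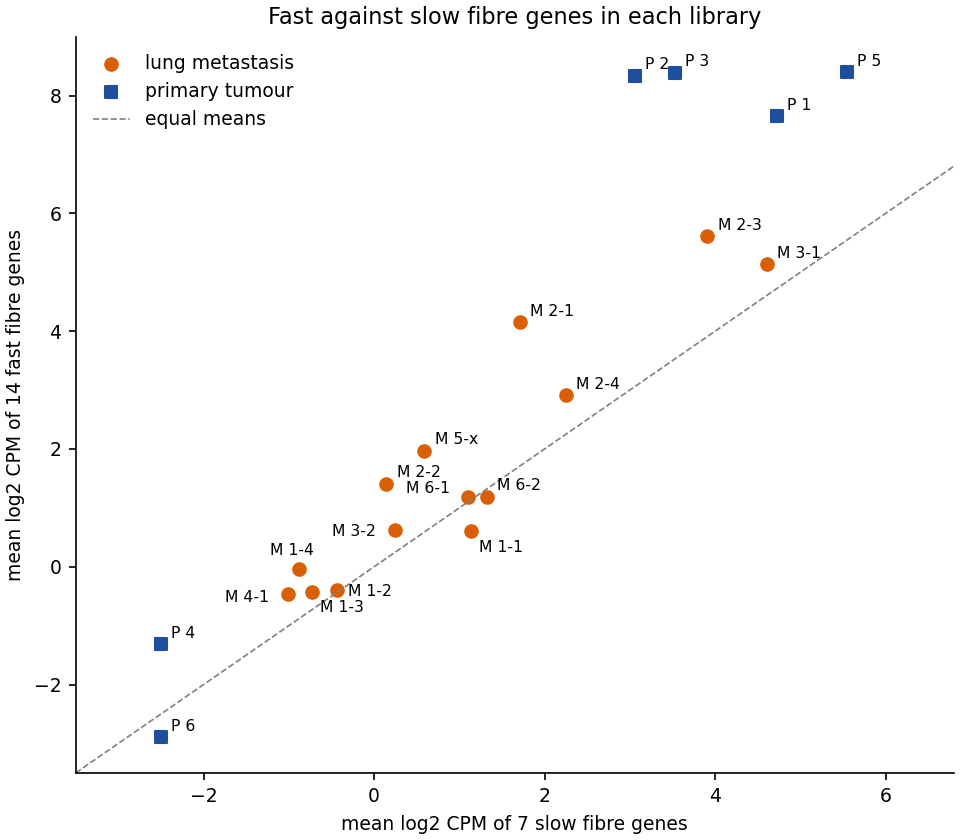
Mean log2 CPM of the 14 fast members (y axis) against that of the 7 slow members (x axis) in each library, with lung metastases in orange (M), primary tumours in blue (P) and the line of equal means dashed. Primary tumours 1, 2, 3 and 5 lie 2.85 to 5.28 above the line, and the differences of the metastases run from -0.54 to 2.45.

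The balance of fast and slow members was taken in each library as the mean log2 CPM of the fast list minus that of the slow list. It ran from -0.54 to 2.45 in the metastases (median 0.54) and from -0.39 to 5.28 in the primary tumours (median 2.89). Metastasis 1-1 was the lowest and metastasis 2-1 the highest of the metastases, and the groups overlapped through primary tumours 4 and 6, at 1.19 and -0.39, where few counts stand behind the means. The metastases differed from their primary tumour by -2.76, -3.76, -4.40, -0.64, -1.47 and 0.36 in sets 1 to 6, so that the balance was lower in 5 of 6 sets, by a mean of -2.11 ± 1.85 (SD, n = 6 sets). With the 4 slow members that the heart also uses left out, it was again lower in 5 of 6 sets (mean -2.42 ± 2.42), but these were not the same 5, as set 4 then differed by 0.37, set 6 by -2.09 and set 5 by only -0.10.

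The share of the fast form among the counts of its own family needs no scaling. For troponin I and T the family counts also include Tnni3 and Tnnt2, so the share does not set fast against slow alone. Tnni2 held 12.2% to 72.5% of the troponin I counts in the 14 metastases (median 42.0%), against 72.5% to 98.8% in the 4 primary tumours with at least 50 such counts (median 88.8%). Metastasis 2-1, the highest, had 72.5% (exact 95% interval 69.2% to 75.7%), and metastasis 1-1, the lowest, had 12.2% (9.58% to 15.1%). In metastasis 1-1, 430 of the 568 troponin I counts were of Tnni3, and Tnni2 and Tnni1 had 69 each. For Tnni2 against Tnni1 alone, metastasis 1-2 was the lowest of those with at least 50 counts of the pair, with a log2 ratio of -1.47. Within set 2 the share was 72.5%, 55.6%, 27.5% and 37.3% in the metastases and 98.8% in the primary tumour. Intervals cover counting error only, since reads without molecular identifiers are not independent molecules.

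Tnnc2 held 8.91% to 70.8% of the troponin C counts in 13 metastases (median 32.7%) and 0% to 99.2% in 5 primary tumours (median 84.7%). The 0% was in primary tumour 6, where all 73 troponin C counts were of Tnnc1, with an upper limit of 4.93%. Tnnt3 held 9.20% to 72.8% of the troponin T counts in 14 metastases (median 24.4%) and 26.8% to 99.1% in 5 primary tumours (median 87.4%). For all 3 families, every metastasis of sets 1, 2, 3 and 5 with enough counts had a lower share than its primary tumour. Tnni3 and Tnnt2, which are on the heart list used below, lower the share as the slow genes do. In metastasis 2-3, for example, Tnnt3 had 6232 counts, Tnnt1 3196 and Tnnt2 9074. Against Tnnt1 alone, Tnnt3 had more counts in every metastasis, with log2 ratios of 0.585 to 3.92. In primary tumours 1, 2, 3 and 5 these ratios were 3.98 to 7.15.

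**Figure D4:**
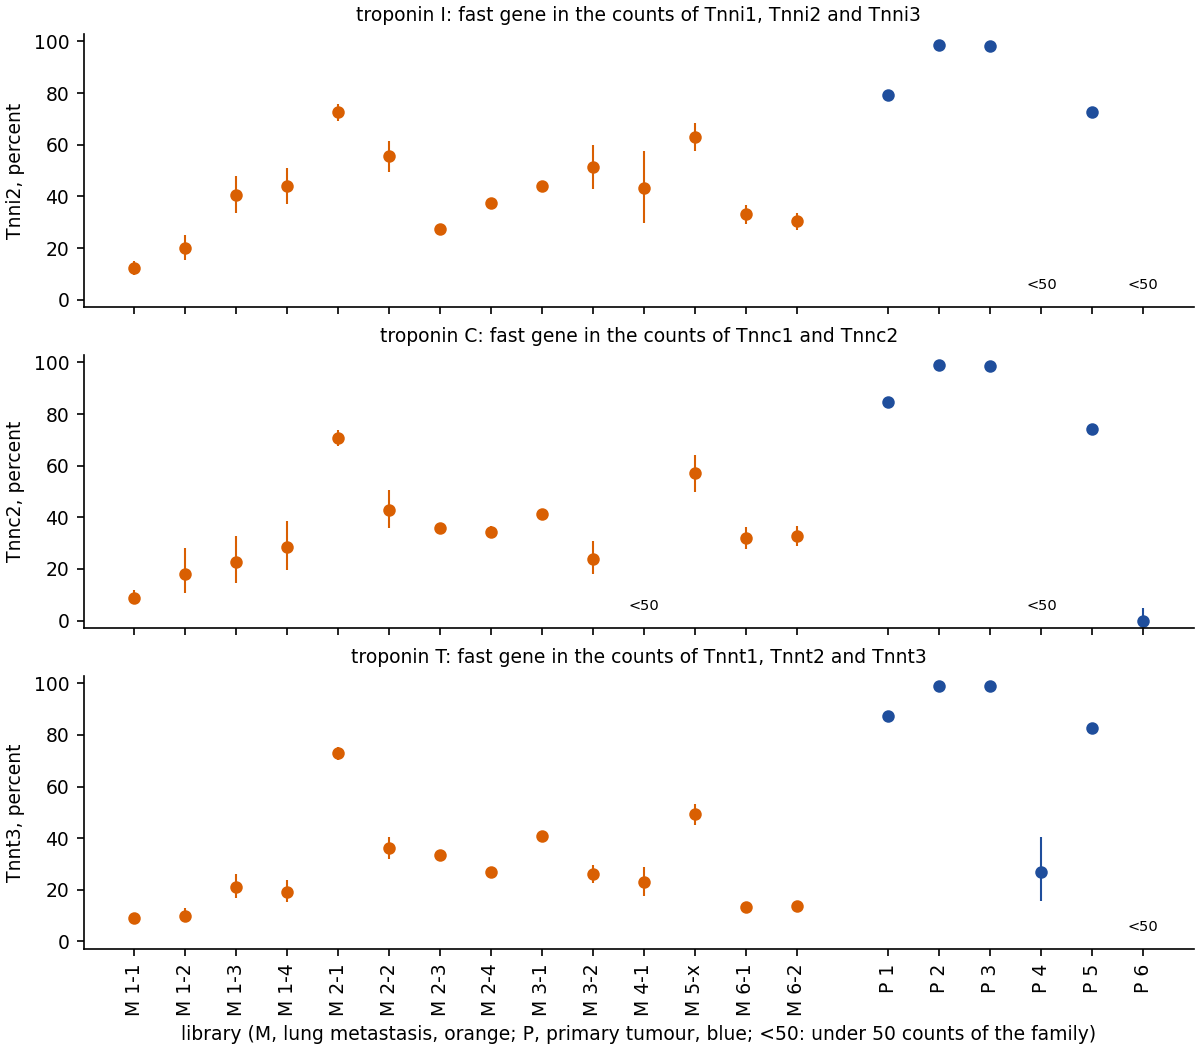
Percent of the counts of the troponin I, C and T families that fell on the fast gene (Tnni2, Tnnc2 and Tnnt3) in each library, lung metastases in orange and primary tumours in blue, with exact 95% binomial intervals; libraries with fewer than 50 counts of the family are marked and not drawn. The highest metastasis is 2-1 in each panel, and primary tumours 2 and 3 lie above 98% in each.

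The make-up of the myosin heavy chains differed between libraries. Myh4 held 4.68% to 48.3% of the counts of 6 skeletal myosin heavy chain genes in the metastases (median 8.78%) and 7.96% to 87.0% in the 5 primary tumours with enough counts (median 49.9%). Myh3 and Myh8, the embryonic and perinatal myosins, which are not among the 40 genes, together held 6.89% to 74.9% in the metastases (median 23.4%) and 0.142% to 21.02% in the primary tumours (median 12.1%). Their share was 65.6% in metastasis 2-3, 74.9% in 2-4, 69.3% in 3-1, 61.9% in 3-2, 69.6% in 6-1 and 70.5% in 6-2, and 23.6% or less in the other metastases. In the primary tumours of sets 2 and 3 the share was 0.159% and 0.142%. Myh7 was the most counted of the 6 genes in metastases 1-1, 2-2 and 5-x, at 50.3%, 35.9% and 53.8%, against at most 1.499% in the primary tumours.

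**Figure D5:**
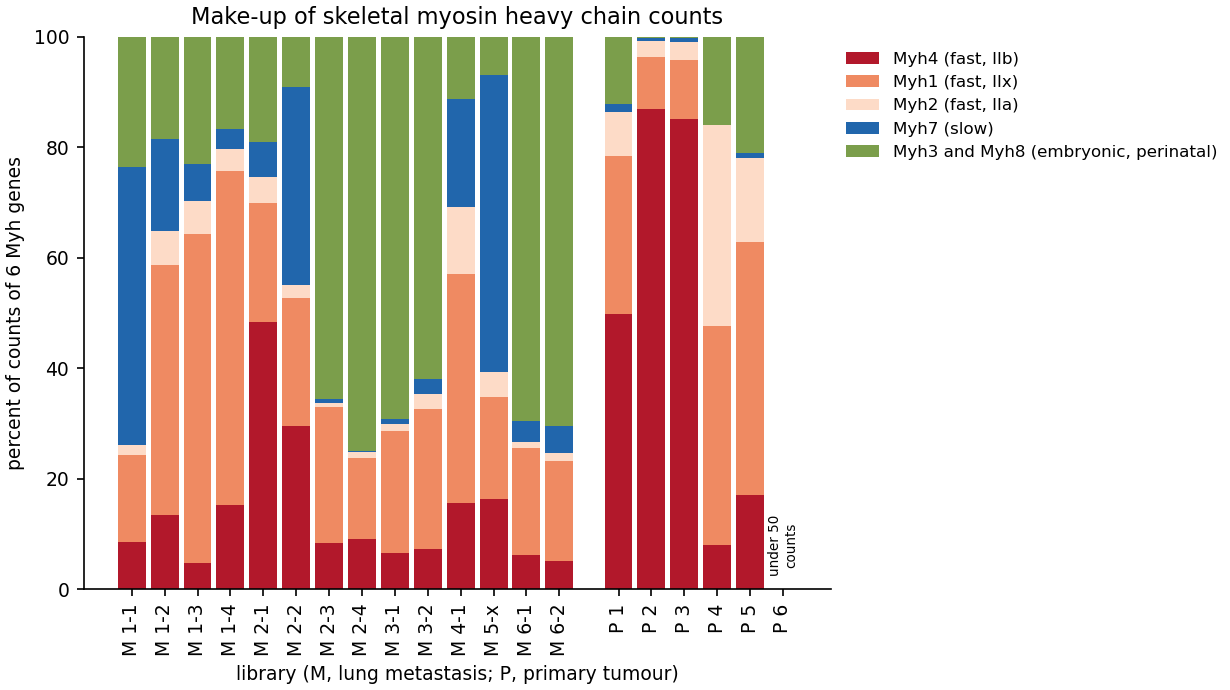
Percent of the counts of 6 skeletal myosin heavy chain genes on each gene (stacked bars) in the 14 lung metastases and 6 primary tumours; primary tumour 6 had fewer than 50 counts. Myh4 takes 85.03% to 87.0% in primary tumours 2 and 3, and Myh3 with Myh8 takes 61.9% or more in metastases 2-3, 2-4, 3-1, 3-2, 6-1 and 6-2.

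Among the shared members, the thin filament and its caps are the core. Tmod4, the tropomodulin that caps the pointed end of actin in muscle (chromosome 3, 95124476 to 95129209), had 0.0890 to 2.23 CPM in the metastases (median 0.454), against 0.214 to 31.96 CPM in the primary tumours (median 16.9). It fell with the smallest p of the 40 (-4.07 ± 0.536, edgeR adjusted p = 0.000647) and passed in 29 of 30 alternatives, the exception being the summed metastases (adjusted p = 0.0653). In set 4 it had 0.0890 CPM (3 counts) in the metastasis and 0.214 CPM (4 counts) in the primary tumour. In set 6 it had 0.159 and 0.326 CPM (5 and 11 counts) in the metastases and 0.437 CPM (13 counts) in the primary tumour. Primary tumours 1, 2, 3 and 5, at 11.7 to 31.96 CPM, were above every metastasis.

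Acta1, the actin of the skeletal thin filament, had 2.19 to 1979 CPM in the metastases (median 15.4) and 0.202 to 3341 CPM in the primary tumours (median 1132), and did not pass (-4.38 ± 1.83, edgeR adjusted p = 0.126). Metastasis 2-3, at 1979 CPM, exceeded primary tumours 1, 2 and 3, while metastasis 4-1 had 2.19 CPM. Acta1 shares most of its coding sequence with the cardiac actin gene Actc1, so counts of both are uncertain; Acta1 held 9.56% to 84.7% of their joint counts in the metastases and 90.7% to 99.7% in 4 primary tumours. Tpm2, a tropomyosin that smooth muscle and fibroblasts use as well, had 33.7 to 323 CPM in the metastases and 3.46 to 916 CPM in the primary tumours (-0.80, edgeR adjusted p = 0.393).

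The giant and Z-disc proteins varied in how far they followed. Ttn, the spring that spans the sarcomere from Z-disc to M-line, had 30.2 to 6702 CPM in the metastases and 4.10 to 15520 CPM in the primary tumours and did not pass (-2.50, edgeR adjusted p = 0.23), and Neb, the ruler of the thin filament, did not either (-3.93, edgeR adjusted p = 0.0981). Myot, a Z-disc scaffold, fell (-4.78, edgeR adjusted p = 0.0109). Xirp2, an actin-binding repeat protein of the muscle-tendon junction and intercalated disc, had 0.865 to 41.5 CPM in the metastases (median 5.06) and 0.0336 to 557 CPM in the primary tumours (median 442), and fell (-4.70 ± 1.17, edgeR adjusted p = 0.0152). Tcap (-3.01), Klhl41 (-3.64), Smpx (-1.76), Ldb3 (-1.87) and Actn2 (-1.44), all linked with the Z-disc or with thin filament upkeep, were lower and did not pass (edgeR adjusted p from 0.0877 to 0.525). Smpx passed when no block was used (edgeR adjusted p = 0.0338).

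Calcium release and energy supply gave 1 call among the shared members. Ryr1, the calcium release channel of the sarcoplasmic reticulum, had 1.36 to 286 CPM in the metastases (median 8.66) and 0.235 to 636 CPM in the primary tumours (median 252), and did not pass (-3.66 ± 1.57, edgeR adjusted p = 0.134). Metastases 2-3 and 3-1, at 286 and 273 CPM, were above primary tumours 1 and 3, at 253 and 251 CPM. Cacna1s, the voltage sensor that opens Ryr1, had a fold of -3.52 (edgeR adjusted p = 0.106). Ckm, the creatine kinase that refills ATP at the sarcomere, had 0.172 to 59.2 CPM in the metastases (median 2.12) and 0 to 574 CPM in the primary tumours (median 264), and fell (-5.12 ± 1.23, edgeR adjusted p = 0.013). Pygm, the muscle glycogen phosphorylase, did not pass (-2.59, edgeR adjusted p = 0.093). Eno3, the muscle enolase, had 17.2 to 325 CPM in the metastases (median 201) and 13.2 to 438 CPM in the primary tumours (median 199), with -0.14 ± 0.435 (edgeR adjusted p = 0.864).

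The atrophy ligases did not pass. Trim63 (MuRF1), which marks myofibrillar proteins for breakdown, had 0.239 to 28.3 CPM in the metastases (median 0.998) and 0 to 43.0 CPM in the primary tumours (median 18.5), with -2.20 ± 1.11 (edgeR adjusted p = 0.203). Fbxo32 (atrogin-1), which is known to act beside it in wasting muscle, had 47.5 to 102 CPM in the metastases (median 72.6) and 17.7 to 96.2 CPM in the primary tumours (median 71.9), with 0.22 ± 0.212 (edgeR adjusted p = 0.529). Fbxo32 was the only member of the 40 with a positive fold, and it stayed at 88.8 CPM in primary tumour 4, where Trim63 had 0.107 CPM.

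Per kilobase of exon, the order of the genes differed between the groups. In the metastases the highest medians were those of Eno3 (115 CPM per kilobase, range 9.90 to 187), Tpm2 (67.7, range 11.6 to 111) and Fbxo32 (10.4, range 6.805 to 14.6), followed by Acta1 (10.02, range 1.43 to 1289). The ranges of neighbours in this order overlap. In the primary tumours Acta1 (737 CPM per kilobase, range 0.131 to 2175), Tnnc2 (359, range 0 to 606) and Tnnt3 (353, range 0.506 to 522) stood first, and Eno3 (114, range 7.60 to 252) had rank 9. At the other end, Myl3 was last in both groups, with medians of 0.0153 CPM per kilobase in the metastases and 1.07 in the primary tumours.

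The metastases of different primary tumours were then compared with each other, using the 12 metastases of sets 1, 2, 3 and 6. None of the 40 genes passed in edgeR (F test over 19919 genes, adjusted p under 0.05), where 0.321% of all genes did. At an unadjusted p under 0.05 there were 26 of the 40, against 29.5% of all genes, and among them all 14 fast members but 4 of 7 slow ones. The DESeq2 likelihood ratio test called 28 of the 39 members it tested, and 4890 of all 19919 genes. The counts turned on single libraries, for all genes as for the members. Without metastasis 3-1, 22 of the 40 passed in edgeR, and 5602 of 21028 genes did, against 64 with all 12 metastases. Without 2-4, 4 members and 1186 of 19713 genes passed, and without 2-3, 2 members and 230 of 19651 genes passed. Without both 2-3 and 3-1, a choice made after seeing the data, 20 members and 7152 of 20668 genes passed. Set 1 held the lowest levels, with a mean fast log2 CPM between -0.42 and 0.60 in its 4 metastases.

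Metastases of the same set differed among themselves. In set 2, the mean log2 CPM of the fast members was 4.16, 1.41, 5.61 and 2.91 in metastases 2-1 to 2-4, and in set 3 it was 5.14 in 3-1 and 0.63 in 3-2. In set 6 both metastases had 1.19. Actn3, for example, had 29.0, 4.36, 314 and 22.4 CPM in metastases 2-1 to 2-4.

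Whether the difference from the primary tumour varied between sets was tested as an interaction of set and type, with the spread taken from metastases of 1 set. Each set has 1 primary tumour, which the test assumes to vary like these metastases, and this could not be checked. Only Mybpc1 passed (edgeR F test, adjusted p = 0.0373), where 4.1% of all genes did. Its log2 differences were -8.04, -2.60, -1.12, 0.08, -7.25 and 7.03 in sets 1 to 6. A further 18 members had an unadjusted p under 0.05, which makes 19 of 40, against 22.2% of all genes. The DESeq2 likelihood ratio test called 30 of 39 members and 4099 of all 18452 genes, where edgeR called 756.

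Genes that heart uses were measured with a list of 20 genes, not all of them particular to heart. Of the 17 tested, among them the slow members Myl2 and Myl3, 5 rose and 1, Myl2, fell, against 7.34% and 6.44% of all genes. The summed level of the list ran from 26.4 to 1288 CPM in the metastases and from 2.22 to 1014 CPM in the primary tumours. Tbx5, a transcription factor of atria and of lung mesenchyme, rose (5.83, edgeR adjusted p = 0.00688), as did Myl7, the atrial light chain (7.14, edgeR adjusted p = 0.00945). Myh6, the atrial myosin, had 165 CPM in metastasis 1-1 and 65.4 in 3-1, at most 9.76 in the other metastases and at most 3.13 in the primary tumours.

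Metastasis 1-1 also had more of several members that heart uses than the other metastases of set 1, but not of Myl2, at 0.225 CPM, against 0.0981 to 0.239 CPM. It had 17.5 CPM of Myh7, against 0.327 to 0.895 in metastases 1-2 to 1-4, 14.8 CPM of Tnnc1, against 2.03 to 2.34, and 15.2 CPM of Actn2, against 0.119 to 1.10. The part of heart tissue in these values was not tested. In metastasis 2-3, which held the most Tnni1 and Tnnc1, Nppa and Tbx5 had 0 counts, Myl7 had 0.213 CPM and Myh6 had 1.14 CPM. Other genes of the heart list were high there, with 470 CPM of Actc1, 322 CPM of Tnnt2, 313 CPM of Casq2 and 172 CPM of Myl4. The sum of the heart list there, 1288 CPM, was the highest of all 20 libraries. Myog, at 352 CPM, and Myh3, at 462 CPM, were high there too, and which tissue these genes came from was not tested. Without metastases 1-1 and 3-1, a choice made after seeing the data, 13 of the 39 members tested and 923 of all genes fell in the comparison with primary tumours.

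The summed level of 17 embryonic muscle genes and myogenic regulators was 3602 CPM in metastasis 2-3 and 2074 CPM in metastasis 3-1, the highest of the metastases. Metastasis 2-3 had 352 CPM of Myog, the regulator of terminal differentiation, 128 CPM of Myod1, the regulator of commitment, and 462 CPM of Myh3. Metastasis 3-1 had 78.6, 50.9 and 546 CPM of these genes. Not every gene of the list followed, since in metastasis 2-3 Pax3 had 0 CPM and Pax7 0.106 CPM, and Myf5 was highest in primary tumour 4, at 629 CPM, where Tnni1 had 0.321 CPM. Of the 17 genes, all tested, Musk, the kinase of the neuromuscular junction, rose (1.62, edgeR adjusted p = 0.0352), Mef2c, a partner of myogenic factors, fell (-1.30, edgeR adjusted p = 0.0269), and 15 did not pass. Over all genes, 7.34% rose and 6.44% fell. The summed level of the 17 genes ran from 184 to 3602 CPM in the metastases and from 49.2 to 3343 CPM in the primary tumours, and their part in the levels of the 40 genes was not tested.

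Genes of other tissues that can lie beside a tumour were measured too. Of 10 smooth muscle genes none passed (edgeR, 0 at an unadjusted p under 0.05), and Tagln, an actin-binding protein of smooth muscle, had the smallest p (-2.30, edgeR adjusted p = 0.191). Of 7 tested fat genes Ucp1, the uncoupling protein of brown fat, fell (-3.42, edgeR adjusted p = 0.019), where 6.44% of all genes fell. The summed fat genes had 7.57 to 85.4 CPM in the metastases and 0.802 to 179 CPM in the primary tumours, the highest in primary tumours 2 and 3.

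The rest of the same pathways was read from further lists, and of all genes tested 7.34% rose and 6.44% fell. Of 29 tested sarcomere genes outside the 40, none rose and 3 fell: Tpm1, a tropomyosin of many cell types (-1.02, edgeR adjusted p = 0.0241), Mylk2, the skeletal myosin light chain kinase (-3.41, edgeR adjusted p = 0.0343), and Kbtbd13, a Kelch protein of the thin filament (-2.19, edgeR adjusted p = 0.0445). Their median log2 fold change was -1.55, with 26 of 29 lower. Of 24 tested calcium and excitation genes, none rose and 4 fell, with a median of -0.33. Sypl2, a protein of the triad membrane (-4.57, edgeR adjusted p = 0.0111), Mcu, the mitochondrial calcium channel (-0.89, edgeR adjusted p = 0.0146), and Trdn, the anchor of the calcium release complex (-4.04, edgeR adjusted p = 0.0244), had the smallest p. Atp2a2, the calcium pump of slow fibres, heart and most other cells, had 386 to 884 CPM in the metastases and 409 to 510 CPM in the primary tumours (0.03, edgeR adjusted p = 0.934).

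Of 24 muscle energy genes, none rose and 5 fell, with a median of -0.82, where 7.34% of all genes rose and 6.44% fell. Phkg1, the catalytic subunit of muscle phosphorylase kinase (-3.39, edgeR adjusted p = 0.00307), Ampd1, the muscle AMP deaminase (-3.98, edgeR adjusted p = 0.00754), and Aldoa, the aldolase of muscle and many other cells (-1.24, edgeR adjusted p = 0.0252), had the smallest p. Aldoa and Mcu were lower in 6 of 6 sets, while Ampd1, Sypl2 and Trdn were lower in 4 of 6, the same 4 sets as most of the 40 genes.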

How the data were processed

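The authors deposited raw read counts per gene for 14 lung metastases and 6 primary tumours. RNA was purified with Direct-zol and made into stranded libraries after Ribo-Zero Gold depletion, per the labels' protocols. Trimmomatic 0.36, STAR, HTSeq and mm10 are named in the submitters' processing notes. Neither the annotation release nor the use of strand in counting is stated in the labels or notes. All columns of values were used (0 unused). Symbols came from GENCODE for 51633 of 51826 identifiers, and exon lengths from the same annotation.

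Counts were tested with edgeR 4.0.16 in R 4.3.3 (TMM, minimum count 10, robust quasi-likelihood fit, Benjamini-Hochberg adjustment over all genes tested, threshold 0.05), with the matched set as a block because titles match each metastasis with its primary tumour. Deviations of matched samples over the 1000 most variable genes had a mean correlation of 0.0825, and 3 of 6 sets were over 0.1. Log2 CPM has a prior count of 2. Alternatives used DESeq2 1.42.0, limma 3.58.1, other scalings, no filter, no block and samples left out. Every member is named or counted, with full values for the genes that define fibre type and for the 3 smallest and 3 largest p, and in other lists the 3 smallest p are named. The members and lists were chosen with earlier results of these data known. The statistics were tested on simulated data.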

Additional observations from a re-analysis of the deposited data

Results flagged for a closer look

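In 7 of 123 groups of samples tested, 1 sample lay far from the others of its group, and chance gives about 1 in 20. Fbxo32 had a log2 CPM of 4.15 in primary tumour 6, below the other primary tumours. Among the metastases of set 1, Myh1 was low in metastasis 1-2 at 1.31 and Pvalb was low in metastasis 1-3 at -3.96, where it had no count. In metastasis 1-1, Myl3 at 0.44, Tnnc1 at 3.90 and Ldb3 at 3.51 log2 CPM were each above the other metastases of set 1. Myh6, the atrial myosin, had 165 CPM in metastasis 1-1, and its part in these values was not tested. Eno3 was low in metastasis 2-4 at 6.05 log2 CPM, against the other metastases of set 2.

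The difference of Mybpc1 between metastases and primary tumour varied between sets in the test of the interaction (edgeR adjusted p = 0.0373).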

How the results depend on the processing

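No member rose in any of the alternatives run. The 16 members that fell became 10 without the filter on low counts, 0 with the metastases of each set summed and 1 with metastasis 1 of each set alone. The count over all genes, 1189, became 992, 63 and 108 in the same order. With limma voom 24 fell, and DESeq2 called 15 of the 25 members to which it gave an adjusted p. With alternatives chosen after seeing the data, 30 fell without sets 4 and 6 and 27 without metastases 2-3 and 3-1. Leaving out 1 set or 1 metastasis at a time gave 2 to 23. Without the replicate block 16 fell, Actn3 and Tnnc2 no longer passing and Myh1 and Smpx passing, and the fold of Tnnc1 was 0.11. The 0 members called between metastases of different sets in edgeR (26 at an unadjusted p under 0.05) became 28 with the DESeq2 likelihood ratio test, 1 without the filter and 0 to 22 with 1 metastasis left out. Without metastases 2-3 and 3-1, chosen after seeing the data, they became 20. The 1 member called for the interaction became 30 with DESeq2. The mean difference of fast minus slow stayed between -2.61 and -1.65 with 1 set left out.

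Folds changed sign only for members that did not pass. Tnnc1 was 0.03 with DESeq2, 0.028 with upper quartile scaling, 0.008 with total counts, 1.34 with summed metastases and 0.89 with metastasis 1 alone. With summed metastases Tnnt1 was 0.74 and Tnni1 1.03, and with metastasis 1 alone Myh7 was 0.55 and Eno3 0.045. With 1 set or metastasis left out, Tnnt1 ran from -2.04 to 1.84, Tnni1 from -2.15 to 2.67, Tnnc1 from -0.78 to 2.37, Eno3 from -0.42 to 0.25 and Fbxo32 from -0.01 to 0.34. The cause was not tested. Primary tumours 4 and 6, with 18 and 10 members at 10 counts or more, limit what their sets can show.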
